A study of Mus musculus with 12 samples.

Results

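This account follows 9 genes that pattern the developing cerebral cortex, Emx1, Emx2, Lhx2, Nr2f1, Nr2f2, Sp8, Dmrt3, Dmrta2 and Fgfr3, through RNA profiles of the mouse pallium at E13.5, when its progenitors are producing neurons. They were chosen by name, 9 of the 54735 gene symbols listed for each library, and all 9 are among the 11764 genes tested. The first 8 encode transcription factors and Fgfr3 encodes a receptor. The profiles are total RNA libraries of dissected dorsal telencephalon from 12 C57/Bl6 embryos, 4 of each of 3 genotypes. Control embryos were Rnu11wt/flx::Trp53wt/wt::Emx1-Cre+, the mutants called cKO were Rnu11flx/flx::Trp53wt/wt::Emx1-Cre+, and the double mutants called dKO were Rnu11flx/flx::Trp53flx/flx::Emx1-Cre+. U11, the product of Rnu11, is an RNA that recognizes the 5′ splice site of minor introns, and Trp53 encodes p53. All 12 embryos carried Emx1-Cre, so Cre could act on the 1 floxed Rnu11 allele of the controls in the same cells. Cre driven from Emx1 acts in the progenitors of the pallium and their descendants, and not in the vessels, microglia or meninges that a dissection also holds. How the Emx1-Cre allele was built is not given in the sources used here, so whether it alters Emx1 itself is not known. The labels do not say that the embryos of a group came from separate litters, so p-values measure the spread between these embryos.

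The pallium is patterned by signals from its edges. Fgf ligands come from the rostral patterning centre, and Wnt and Bmp ligands come from the cortical hem at the medial edge. These signals set graded levels of transcription factors in the progenitors. Emx2, Nr2f1 and Fgfr3 are known to be higher caudally, Sp8 rostrally and medially, Nr2f2 caudally and ventrally, and Dmrt3 and Dmrta2 medially. Lhx2 is a selector of cortical identity against the hem, and Emx1 marks the dorsal telencephalon. Whole pallium was measured, so a gradient shows here only through its summed level.

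Promoter sequence is shown for 3 of the genes whose level differed between genotypes, because their start regions range from poor to rich in CpG dinucleotides. All 9 symbols had an entry in the RefSeq table for GRCm38.p6, the build that mm10 names. Each line gives the 250 bases before a start, 5′ to 3′ on the gene's strand, with matches to GGGCGG (the GC box that Sp-family factors bind) on either strand in capitals. The Emx1 window, the second Lhx2 window and the third Sp8 window are not shown because GENCODE M21 places UTR or coding sequence there.
Lhx2, chr2:38339031-38339280, plus strand: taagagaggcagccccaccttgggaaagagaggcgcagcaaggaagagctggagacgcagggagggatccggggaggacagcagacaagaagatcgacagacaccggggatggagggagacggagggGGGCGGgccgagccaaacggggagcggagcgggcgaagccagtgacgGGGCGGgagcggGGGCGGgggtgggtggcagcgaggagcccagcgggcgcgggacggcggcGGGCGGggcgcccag
Nr2f2, chr7:70366747-70366996, minus strand: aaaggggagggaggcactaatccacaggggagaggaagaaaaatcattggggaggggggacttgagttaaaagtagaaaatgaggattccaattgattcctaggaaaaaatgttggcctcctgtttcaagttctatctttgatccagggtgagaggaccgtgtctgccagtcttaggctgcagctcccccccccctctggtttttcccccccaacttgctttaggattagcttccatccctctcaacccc
Sp8 first start, chr12:118846079-118846328, plus strand: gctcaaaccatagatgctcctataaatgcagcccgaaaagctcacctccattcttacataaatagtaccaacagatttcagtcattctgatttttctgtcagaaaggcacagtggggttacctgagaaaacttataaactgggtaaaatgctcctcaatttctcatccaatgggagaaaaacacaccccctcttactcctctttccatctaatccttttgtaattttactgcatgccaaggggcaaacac
Sp8 second start, chr12:118846983-118847232, plus strand: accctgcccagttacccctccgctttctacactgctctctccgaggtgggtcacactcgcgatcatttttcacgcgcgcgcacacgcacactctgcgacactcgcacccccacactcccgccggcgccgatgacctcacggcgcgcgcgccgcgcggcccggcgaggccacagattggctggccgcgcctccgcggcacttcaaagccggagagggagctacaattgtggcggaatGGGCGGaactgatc
The Lhx2 window held 25 CpG dinucleotides and 4 GC boxes, the Nr2f2 window 1 CpG and 0 GC boxes. The first Sp8 window held 1 CpG and 0 GC boxes, and the second 32 CpG and 1 GC box. Over 32851 promoter windows of the same length, the median was 6 CpG, and 32.7% held a GC box. The 6-letter motif TAATTA, bound by many homeodomain proteins, was in 0 of these 4 windows and in 4.84% of all windows. The third Sp8 window, which is not shown, held 1. AGGTCA, the half-site of nuclear receptors such as Nr2f1, was in the second Sp8 window and in 14.0% of all windows. The p53 half-site was in 0 of these 4 windows and in 7.13% of all. The Emx2 window, also not shown, held 1. A match is only a match of letters.

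Values are given as scaled TPM. TPM is transcript abundance per unit of gene length, scaled to a fixed library sum. Symbols that GENCODE M21 types as misc_RNA, snRNA or snoRNA, which are short structural RNAs, held 65.1% to 72.6% of that sum over the 12 libraries. As deposited the tested genes were shifted between groups, with a median log2 change over tested genes of 0.25 in cKO and -0.015 in dKO relative to control, and -0.26 in dKO relative to cKO. Each library was divided by 1 factor, the median ratio of its genes to the mean library (0.874 to 1.31 over the 12 libraries). TPM keeps no depth, so no counting interval is given. Rnu11 had a mean of 682 ± 71.8 in controls, against 125 ± 17.3 for cKO embryos and 178 ± 31.5 for dKO embryos (SD, n = 4 each; exact permutation p = 0.0286 for each mutant against control, adjusted 0.0343 over 6 tests). Trp53 stood at 4.03 ± 1.65, 3.65 ± 0.208 and 1.33 ± 0.255 (SD, n = 4 each) in control, cKO and dKO. Rnu11 was thus lower in both genotypes with both of its alleles floxed, and Trp53 in dKO. The mutants also differed in Rnu11, where the dKO mean was 143% of the cKO mean (a difference of 53.8 scaled TPM, exact permutation p = 0.0286, adjusted 0.0343). As deposited that difference was 19.3 TPM (exact permutation adjusted p = 0.446). The ventral telencephalon list was near 0: 11 of its 12 markers did not reach a mean of 1 TPM, and Lhx8 was listed at 0 in all 4 controls. All 6 diencephalic markers were below that mean too, with Gbx2 listed at 0 in all 4 dKO.

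In control pallium Lhx2 was the highest of the 9 at 30.4 ± 5.27 scaled TPM, and Nr2f1 followed at 27.4 ± 3.87, with overlapping ranges (SD, n = 4 each). Fgfr3 came next at 15.0 ± 2.74, below every Nr2f1 value. Emx1 stood at 9.38 ± 1.62, below every Fgfr3 value. Emx2 (6.34 ± 2.36), Nr2f2 (4.94 ± 1.29), Dmrta2 (2.79 ± 1.20), Dmrt3 (1.43 ± 0.483) and Sp8 (1.08 ± 0.222) completed the order (SD, n = 4 each). Each of these neighbours overlapped the next. In cKO the order differed at 2 places: Nr2f1 stood above Lhx2, with overlapping ranges, and Nr2f2 stood above Emx1, with separate ranges. In dKO Emx2, Nr2f2 and Emx1 overlapped in that order.

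**Figure D1:**
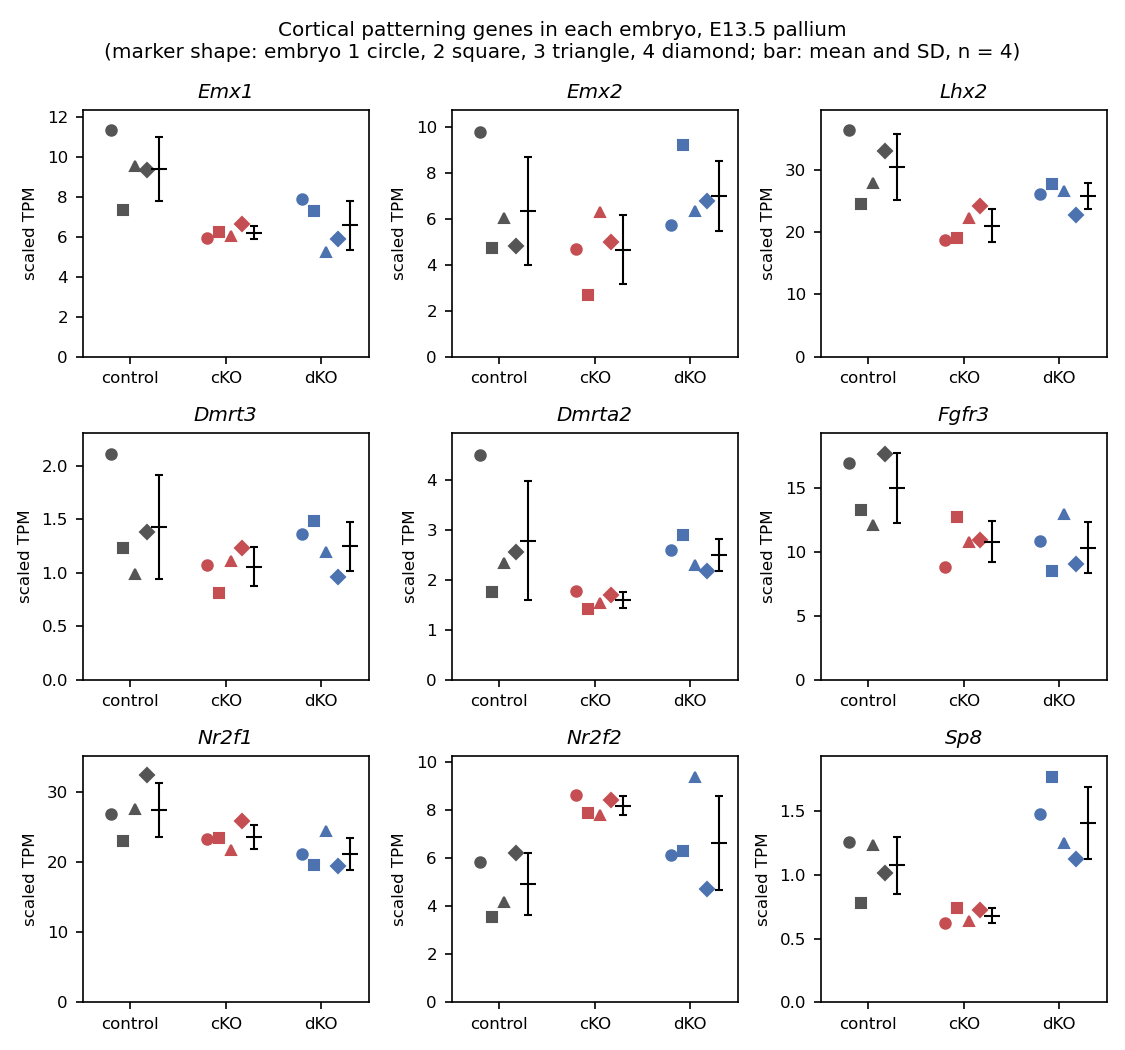
Scaled TPM (vertical axis, from 0) of the 9 patterning genes in each of the 4 embryos of control, cKO and dKO; marker shape gives the embryo number and bars the mean and SD. All cKO values of Nr2f2 lie above all control values, all cKO values of Emx1, Lhx2 and Sp8 lie below all control values, and all dKO values of Sp8 lie above all cKO values.

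The first question is what loss of U11 did to these genes. In cKO, Nr2f2 rose and Emx1 and Lhx2 fell, 3 of the 9 genes by limma at an adjusted p under 0.05. Higher calls were 1 of 9, where 3.96% of all tested genes were called higher, and lower calls 2 of 9, where 3.26% were called lower. As deposited and after protein-coding rescaling only Nr2f2 was called, 1 of 9, where 35.4% and 13.1% of all genes were called. The change was negative for 8 of the 9, with a median of -0.37 on the log2(scaled TPM + 1) scale, where the median of all genes was -0.0038. In 4 of the 9 genes (Emx1, Lhx2, Nr2f2 and Sp8) the cKO and control embryos did not overlap, against 17.5% of all genes. In bulk tissue, fewer cells of a type and less RNA per cell cannot be told apart.

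Emx1, a homeobox gene of the dorsal telencephalon (chromosome 6, 85187438 to 85204462, plus strand), stood at 11.3, 7.35, 9.51 and 9.35 scaled TPM in controls 1 to 4. It stood at 5.92, 6.21, 6.05 and 6.63 in cKO embryos 1 to 4. The 4 cKO embryos lay close together and below all 4 controls. The log2 change was -0.51 ± 0.127 (SE; limma adjusted p = 0.0312). In dKO the embryos stood at 7.88, 7.29, 5.23 and 5.87. dKO embryo 1 lay within the control range and the other 3 lay below it, embryo 2 by little. The change of dKO from control was -0.46 ± 0.127 (SE; limma adjusted p = 0.0441), and dKO did not differ from cKO by the test (0.058, 95% interval -0.22 to 0.33, limma adjusted p = 0.818). The cKO call was lost as deposited (log2 change -0.24, limma adjusted p = 0.223) and after protein-coding rescaling (-0.38, limma adjusted p = 0.0573), in which each library is scaled to an equal sum of protein-coding genes. It held in 2 of the 8 fits that left out 1 embryo, those without control embryo 2 or cKO embryo 4. Without a filter on low values the change was the same and its adjusted p was 0.0706. In dKO the change stayed about as large under the same pair of scalings but missed the threshold, at -0.47 as deposited (limma adjusted p = 0.102) and -0.42 after protein-coding rescaling (0.0502). It also missed it without a filter (limma adjusted p = 0.101) and in a fit of the 2 groups alone (0.127), and with 1 embryo left out it held without control embryo 2, dKO embryo 1 or dKO embryo 2 only.

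Lhx2, the LIM homeobox selector (chromosome 2, 38339281 to 38369733, plus strand), stood at 36.4, 24.5, 27.8 and 33.0 scaled TPM in controls 1 to 4 and at 18.6, 19.1, 22.2 and 24.1 in cKO embryos 1 to 4. The highest cKO embryo was just under the lowest control. The log2 change was -0.51 ± 0.124 (SE; limma adjusted p = 0.0302). In dKO Lhx2 stood at 26.0, 27.7, 26.6 and 22.8, between the other groups and overlapping both. Neither dKO contrast passed: -0.22 against control (limma adjusted p = 0.305) and 0.29 against cKO (limma adjusted p = 0.181). The cKO call was lost as deposited (-0.21, limma adjusted p = 0.313), after protein-coding rescaling (-0.36, adjusted p = 0.0865) and after quantile normalization (-0.44, adjusted p = 0.0768), and without a filter its adjusted p was 0.0635. It held in 2 of 8 leave-one-out fits, those without control embryo 2 or cKO embryo 4.

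Emx2, the caudally graded paralog of Emx1 (chromosome 19, 59458372 to 59465357, plus strand), varied widely within groups. It stood at 9.77, 4.73, 6.06 and 4.81 scaled TPM in controls 1 to 4, at 4.69, 2.68, 6.29 and 4.98 in cKO, and at 5.72, 9.21, 6.36 and 6.76 in dKO. Control embryo 1 and dKO embryo 2 were high and cKO embryo 2 was low, and all 3 groups overlapped. No contrast passed in limma, with adjusted p-values of 0.398 for cKO and 0.731 for dKO relative to control and 0.195 between the mutants. The interval for cKO, -0.88 to 0.14, holds the change seen in Emx1.

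Dmrta2 and Dmrt3, zinc-finger factors of the DM family that are highest in the medial pallium, were both low in abundance. Dmrta2 (chromosome 4, 109978053 to 109983687, plus strand) stood at 4.51, 1.75, 2.34 and 2.56 scaled TPM in controls 1 to 4 and at 1.78, 1.41, 1.54 and 1.69 in cKO. The cKO embryos were low and even, and control embryo 2 fell among them. The log2 change was -0.49 ± 0.168 (SE; limma adjusted p = 0.0998). It was -0.30 without control embryo 1 (adjusted p = 0.123), and it passed without control embryo 2 (-0.63, adjusted p = 0.0399). In dKO Dmrta2 ranged from 2.18 to 2.91, above all 4 cKO embryos, with a change of 0.42 from cKO that did not pass (limma adjusted p = 0.149). It passed when the fit held only these 2 groups (adjusted p = 0.0355). Dmrt3 (chromosome 19, 25610301 to 25623921, plus strand) ranged from 0.989 to 2.11 in control, 0.806 to 1.24 in cKO and 0.956 to 1.48 in dKO. The groups overlapped, and limma adjusted p-values ran from 0.367 to 0.712.

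Nr2f1 and Nr2f2 encode the orphan nuclear receptors COUP-TFI and COUP-TFII, close paralogs that set caudal and ventral areas. Nr2f1 (chromosome 13, 78188973 to 78199757, minus strand) stood at 26.7, 23.0, 27.5 and 32.4 scaled TPM in controls 1 to 4, at 23.2, 23.5, 21.7 and 25.8 in cKO, and at 21.2, 19.5, 24.4 and 19.5 in dKO. The mutants leaned low and overlapped the controls. The change was -0.20 in cKO (95% interval -0.43 to 0.025; limma adjusted p = 0.278) and -0.35 in dKO (-0.58 to -0.13; adjusted p = 0.0575). As deposited the direction in cKO was reversed, at 0.093 (limma adjusted p = 0.604), and dKO was called lower than cKO (-0.47, adjusted p = 0.0215). For dKO against control, Nr2f1 passed without control embryo 2 (limma adjusted p = 0.0315) or dKO embryo 3 (0.0420).

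Nr2f2 (chromosome 7, 70351944 to 70366735, minus strand) stood at 5.84, 3.55, 4.16 and 6.21 scaled TPM in controls 1 to 4 and at 8.64, 7.89, 7.79 and 8.41 in cKO embryos 1 to 4. Every cKO embryo lay above every control, and the cKO mean was 166% of the control mean, a 1.66-fold level. The log2 change was 0.65 ± 0.176 (SE; limma adjusted p = 0.0448), 0.92 as deposited (adjusted p = 0.0055), 0.78 after protein-coding rescaling (0.0199) and 0.66 after quantile normalization (0.0429). The call was lost without a filter on low values, where the change was the same and the limma adjusted p was 0.0986. In dKO the embryos stood at 6.13, 6.31, 9.37 and 4.71, embryo 3 above all cKO embryos, embryos 1 and 4 within the control range and embryo 2 just above it. dKO was not called against control (0.35, limma adjusted p = 0.242) or against cKO (-0.30, limma adjusted p = 0.325). As deposited, dKO was called lower than cKO (-0.59, limma adjusted p = 0.0314). With 1 embryo left out, the cKO change ran from 0.53 to 0.76, and it passed without control embryo 1 or control embryo 4 only (limma adjusted p from 0.041 to 0.124 over the 8 fits).

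Nr2f2 is also expressed in veins and meninges, and in interneurons that come from the ventral telencephalon. Beside it, 3 of 6 tested endothelial markers were called higher in cKO, and the summed list ranged from 10.6 to 12.9 scaled TPM in control and from 17.2 to 19.2 in cKO. Of 4 tested meningeal markers 1 was called higher, with sums of 15.5 to 24.2 and 22.8 to 26.4. As deposited 6 endothelial and 3 meningeal markers were called higher, and 0 lower. The sum of the 12 ventral markers was 1.90 to 2.92 in control and 2.97 to 4.48 in cKO. In dKO the endothelial sum ranged from 13.2 to 21.9 and the meningeal sum from 23.5 to 31.8. The part of these cells in the Nr2f2 values was not tested.

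Emx1, Lhx2, Emx2 and the Dmrt genes are expressed mainly in progenitors. Of 8 radial glia markers 2 were called lower in cKO and 0 higher by limma (4 lower and 1 higher at an unadjusted p under 0.05). They were Sox2, a neural stem cell factor (11.6 ± 1.26 in control, 8.04 ± 0.581 in cKO), and the Notch target Hes5 (8.66 ± 2.23 and 4.74 ± 0.149; SD, n = 4 each). The summed radial glia list overlapped, at 262 to 280 in control and 259 to 284 in cKO. Most of that sum came from Fabp7 (117 ± 22.0 in control, 129 ± 11.4 in cKO) and Vim (91.2 ± 11.3 and 88.9 ± 1.24; SD, n = 4 each). The sum therefore says little about the other radial glia markers. Of 6 intermediate progenitor markers 3 were called lower in cKO, with sums of 43.3 to 54.6 and 35.1 to 38.5. Of 7 proliferation genes 2 were called lower, with sums of 437 to 526 and 334 to 399. These counts turned with the scaling: as deposited, 3 radial glia markers were called higher and 1 lower, 1 intermediate progenitor marker higher and 1 lower, and 0 proliferation genes either way. After protein-coding rescaling the counts were 1 higher and 2 lower, 0 and 1, and 0 and 0. The part of these changes in the Emx1 and Lhx2 values was not tested.

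Sp8, the Sp-family zinc-finger factor of the rostromedial pallium (chromosome 12, 118846329 to 118852576, plus strand), was the least abundant of the 9 genes in control. It stood at 1.26, 0.784, 1.24 and 1.02 scaled TPM in controls 1 to 4 and at 0.627, 0.738, 0.64 and 0.72 in cKO. It stood at 1.48, 1.77, 1.25 and 1.13 in dKO. All dKO embryos lay above all cKO embryos, and dKO overlapped control. dKO was higher than cKO by 0.51 ± 0.106 (SE; limma adjusted p = 0.0171), with a mean 2.06 times that of cKO. This was the single call among the 9 in that contrast, where 2.72% of all genes were called higher and 4.22% lower. The dKO and cKO embryos did not overlap for Sp8 and Dmrta2, 2 of the 9, against 15.5% of all genes. The call held as deposited (0.35, limma adjusted p = 0.0371), after protein-coding rescaling (0.46, adjusted p = 0.0205), after quantile normalization (0.67, adjusted p = 0.00551) and in all 8 leave-one-out fits (0.44 to 0.57). The gene does not reach the stricter filter of a mean of 5 TPM, so that fit has no value for it. The main filter took the mean over all libraries, and Sp8 reached it only with its dKO values, the group in which it was highest. Its deposited mean was 1.30 for dKO embryos, against 0.797 for cKO embryos and 1.01 for controls. Rnu11 was also higher in dKO than in cKO, and its part in the Sp8 values was not tested. Against control, cKO was -0.30 (limma adjusted p = 0.113) and dKO 0.21 (adjusted p = 0.241). In cKO, quantile normalization called Sp8 lower (-0.47, limma adjusted p = 0.0254).

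Fgfr3, an Fgf receptor of cortical progenitors that is higher caudally (chromosome 5, 33721674 to 33737068, plus strand), stood at 17.0, 13.3, 12.1 and 17.7 scaled TPM in controls 1 to 4. It stood at 8.84, 12.8, 10.8 and 10.9 in cKO and at 10.9, 8.49, 12.98 and 9.06 in dKO. Both mutants leaned low, and each overlapped the controls by its highest embryo. The change was -0.43 (95% interval -0.76 to -0.10) in cKO and -0.50 (-0.83 to -0.17) in dKO, with limma adjusted p-values of 0.109 and 0.0631. Neither passed, and dKO passed without dKO embryo 3 (adjusted p = 0.0394).

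**Figure D2:**
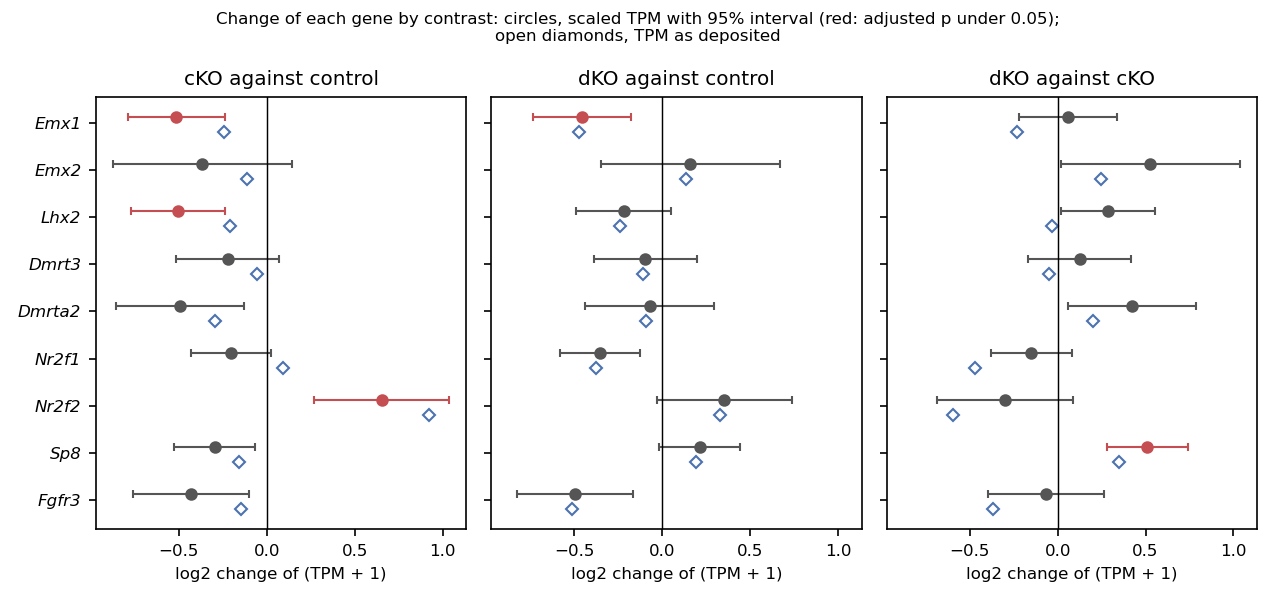
Log2 change of the 9 genes in the 3 contrasts (horizontal axis, difference of mean log2(TPM + 1)); circles with bars are scaled TPM with the 95% interval, red where the limma adjusted p is under 0.05, and open diamonds are TPM as deposited. In cKO the deposited values sit to the right of the scaled ones for all 9 genes, Nr2f2 is at 0.65 and 0.92, and Emx1 is at -0.51 and -0.24.

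The next question is what remained when Trp53 was deleted as well. Against control, dKO had 1 of the 9 genes called lower, Emx1, and 0 called higher, where limma called 5.05% of all genes lower and 3.95% higher. At an unadjusted p under 0.05, 3 were lower (Emx1, Nr2f1 and Fgfr3) and 0 higher, where 12.6% of all genes were lower and 12.2% higher at that threshold. The median change of the 9 was -0.10. As deposited and after protein-coding rescaling, limma called 0 of the 9 (5.19% and 9.18% of all genes were called), with 3 lower at an unadjusted p under 0.05 in both, and 0 and 1 higher. Over all genes, 20.1% and 25.1% reached that unadjusted threshold in either direction. Against cKO, 6 of the 9 changes were positive, with a median of 0.13, and 4 were higher at an unadjusted p under 0.05 (Emx2, Lhx2, Sp8 and Dmrta2), where 11.6% of all genes were. As deposited only 3 of the 9 were positive there, 3 were called (Sp8 higher, Nr2f1 and Nr2f2 lower) where 39.4% of all genes were, and the signs of Emx1, Lhx2 and Dmrt3 were reversed. After protein-coding rescaling Sp8 alone was called, where 9.68% of all genes were. cKO takes part in both of the contrasts that name it, and control in both of those that name control, so the contrasts are not independent.

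Embryos of a genotype differed from each other. Control embryo 1 was the highest control for 6 of the 9 genes (Emx1, Emx2, Lhx2, Sp8, Dmrt3 and Dmrta2), and control embryo 4 for the other 3 (Nr2f1, Nr2f2 and Fgfr3). Over all tested genes, embryo 1 was the highest control for 30.8% and embryo 4 for 15.7%. Control embryo 2 was lowest for 7 of the 9 genes and for 25.9% of all tested genes. In dKO, embryo 2 was highest for Emx2, Lhx2, Sp8, Dmrt3 and Dmrta2, and embryo 3 for Nr2f1, Nr2f2 and Fgfr3, where these embryos were the highest dKO for 26.9% and 20.8% of all tested genes. In cKO Nr2f2 peaked in embryo 1, Fgfr3 in embryo 2 and Nr2f1 in embryo 4.

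In the ratio of 2 genes within an embryo the library factor cancels, apart from the 1 TPM added to each gene, so 6 ratios were compared in 3 contrasts by exact two-sided permutation tests. The smallest p these allow is 0.0286, and 0 of the 18 tests passed after adjustment, where the lowest adjusted p was 0.0857. A pass after adjustment needs most of the 18 tests to reach that smallest p. Before adjustment 6 of the 18 reached the smallest p. The log2 ratio of Nr2f1 to Nr2f2 was 2.02, 2.40, 2.46 and 2.21 in controls 1 to 4, 1.33, 1.46, 1.37 and 1.51 in cKO, and 1.64, 1.49, 1.29 and 1.84 in dKO. Every mutant embryo of both genotypes lay below every control. The difference was -0.86 for cKO and -0.71 for dKO (exact permutation p = 0.0286, adjusted 0.0857, for both), and dKO and cKO overlapped (0.15, exact permutation p = 0.343).

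The ratio of Nr2f1, the caudal factor, to Sp8, the rostromedial one, set dKO apart from both other groups. It was 3.62, 3.75, 3.67 and 4.05 in controls, 3.89, 3.82, 3.79 and 3.96 in cKO, and 3.16, 2.89, 3.50 and 3.27 in dKO. The dKO embryos differed by -0.57 from control and by -0.66 from cKO (exact permutation p = 0.0286, adjusted 0.0857, for both). Sp8 is near the added 1 TPM, and with 0.1 added in its place the difference from cKO was -1.09. The ratio of Fgfr3 to Fgfr1, another receptor of the same ligands, ran from 1.36 to 1.99 over controls, 0.899 to 1.63 over cKO and 0.490 to 1.28 over dKO. The dKO embryos lay below all controls (difference -0.71, exact permutation p = 0.0286, adjusted 0.0857). The ratio of Dmrt3 to Dmrta2 averaged -0.34 ± 0.0879 over cKO embryos and -0.64 ± 0.0496 over dKO embryos (SD, n = 4 each; exact permutation p = 0.0286, adjusted 0.0857), and control overlapped both. Ratios of Emx1 to Emx2 and of Emx2 to Pax6 overlapped in all contrasts, with a difference of -0.62 for Emx1 to Emx2 in dKO against control (exact permutation p = 0.0571, adjusted 0.129).

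**Figure D3:**
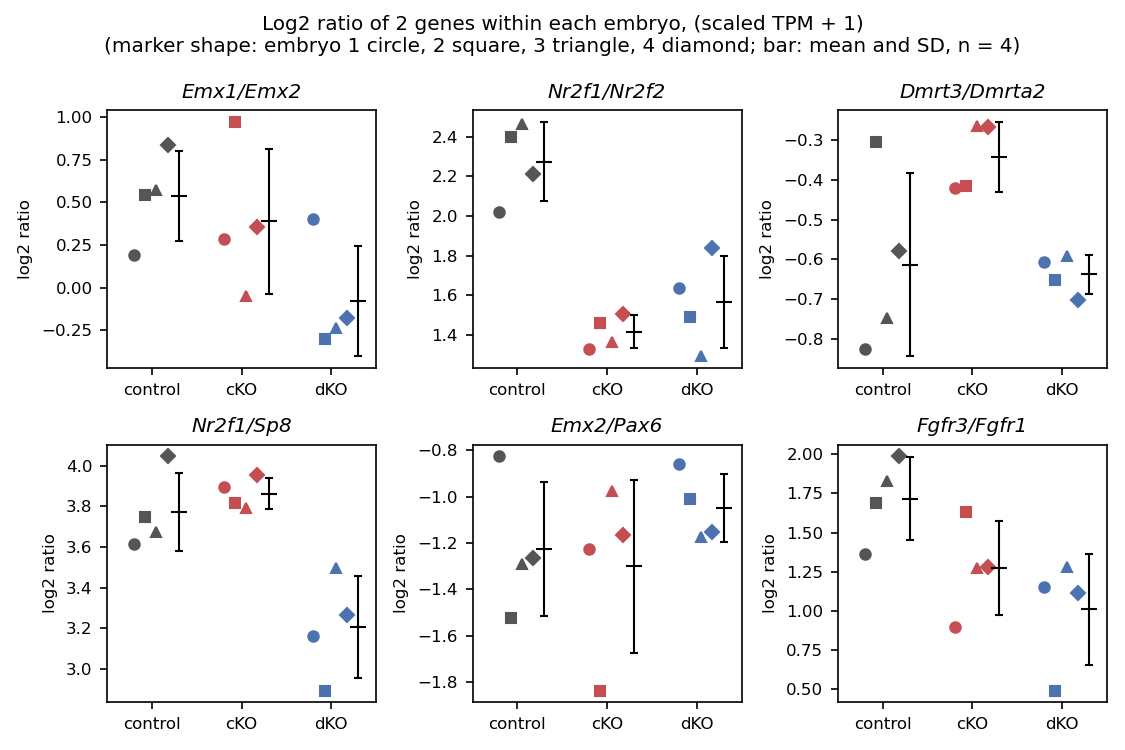
Log2 ratio of 2 genes within each embryo (vertical axis, (scaled TPM + 1) of the first gene over the second) for 6 pairs in control, cKO and dKO; marker shape gives the embryo and bars the mean and SD. The Nr2f1/Nr2f2 ratio is 2.02 or more in all controls and 1.84 or less in all mutants, and the Nr2f1/Sp8 ratio is 3.50 or less in dKO and 3.62 or more elsewhere.

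The signals that pattern the pallium were measured in the same libraries. Of 15 Fgf pathway genes 9 reached the filter, and limma called 1 higher and 0 lower in each contrast. As deposited 5 were called higher and 0 lower in cKO, 0 in dKO against control, and 1 higher and 4 lower in dKO against cKO. After protein-coding rescaling the counts were 2 higher and 0 lower, 1 and 0, and 1 and 1. Fgf17, a ligand of the rostral centre, stood at 2.12, 0.703, 0.526 and 0.225 scaled TPM in controls 1 to 4. It stood at 0.517, 0.467, 0.596 and 1.76 in cKO and at 1.60, 2.99, 5.02 and 4.61 in dKO. dKO embryos 2 to 4 were above all 8 others, and dKO embryo 1 was below control embryo 1 and cKO embryo 4. Fgf17 rose in dKO against control (1.28, limma adjusted p = 0.0317) and against cKO (1.29, limma adjusted p = 0.0368), and the first call was lost as deposited (limma adjusted p = 0.0585). The filter took the mean over all libraries, and Fgf17 reached it only with its dKO values, the group in which it was highest. The deposited Fgf17 mean was 3.28 for dKO embryos, against 1.01 for cKO embryos and 0.854 for controls. Fgf8, the ligand of the same centre, was below the filter, at 0.108 ± 0.187 in control, 0.192 ± 0.137 in the single mutants and 0.837 ± 0.397 in the double mutants (SD, n = 4 each). Dusp6, a feedback inhibitor induced by Fgf signalling, rose in cKO (0.43, limma adjusted p = 0.0463), with 0.33 in dKO against control (limma adjusted p = 0.102).

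Of 16 genes of the hem and its Wnt and Bmp signals 13 reached the filter, and in cKO 4 were called higher and 0 lower, with a list median of 0.39. As deposited 10 were called higher and after protein-coding rescaling 5, and 0 lower in both. Rspo2 and Rspo3, secreted amplifiers of Wnt signalling, rose by 0.87 and 0.72 (limma adjusted p = 0.00157 and 0.0167). Rspo3 stood at 8.19 to 10.9 in control and 15.3 to 17.1 in cKO, with no overlap. The ligands Bmp4 (0.54, limma adjusted p = 0.0373) and Wnt3a (0.53, limma adjusted p = 0.0452) rose as well. In dKO 1 of the 13 was called higher against control, Bmp4, at 0.642 to 1.39 scaled TPM in control and 2.15 to 2.90 in dKO, without overlap (0.91, limma adjusted p = 0.00237). Against cKO, dKO had 2 called lower, Rspo2 (-0.48, limma adjusted p = 0.0463) and Nkd1, a Wnt feedback inhibitor (-0.50, limma adjusted p = 0.0253). The part of hem cells in the values of the 9 genes was not tested. Of 6 genes of the antihem, the lateral edge, 3 were tested. Nrg1, a ligand of ErbB receptors, fell in dKO against control (-0.50, limma adjusted p = 0.00263) and against cKO (-0.39, limma adjusted p = 0.0156). Nrg3 was also called lower in dKO against cKO (0.646 ± 0.281 and 1.49 ± 0.258; SD, n = 4 each). Below the filter, Dbx1 went the other way, at 0.0221 to 0.0505 in control, 0.0132 to 0.0790 in cKO and 0.126 to 0.386 in dKO. Tgfa and Fgf7, also below it, had dKO means of 0.111 and 0.0348 against control means of 0.0968 and 0.0562. In cKO limma called 0 of the 3 tested genes, and 0 at an unadjusted p under 0.05. As deposited 1 was called higher and 0 lower there, and after protein-coding rescaling 0 either way.

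Among 16 other pallial transcription factors, which include Pax6 and Gli3, limma called 0 higher and 1 lower in cKO, a share near that of all genes (3.26% lower). As deposited 3 were called higher and 0 lower, and after protein-coding rescaling 1 and 0. The gene called lower was Meis2, a TALE homeobox factor, at 41.7 ± 3.15 in control and 33.1 ± 1.40 in cKO (SD, n = 4 each; -0.32, limma adjusted p = 0.0452, but -0.020 as deposited). In dKO Meis2 stood at 30.1 ± 3.28 and fell against control (SD, n = 4; -0.46, limma adjusted p = 0.00745), and that call held as deposited (-0.48, limma adjusted p = 0.0329). Bhlhe22, a postmitotic area factor, fell in dKO against control (-0.25, limma adjusted p = 0.0474) and against cKO (-0.42, limma adjusted p = 0.00692). Of 8 tested cofactors of LIM and nuclear receptor factors, 1 was called higher in cKO, 4 as deposited and 2 after protein-coding rescaling. That 1 was Ldb2, a LIM-binding protein, at 2.97 ± 0.409 in control and 5.64 ± 0.953 in cKO (SD, n = 4 each; 0.74, limma adjusted p = 0.00114), and 3.86 ± 0.225 in dKO. In dKO Lmo1, a LIM-only protein, fell against control (-0.61, limma adjusted p = 0.0163) and against cKO (-0.70, limma adjusted p = 0.0117). Of 5 tested area markers, Crym rose in cKO (0.62, limma adjusted p = 0.0366) and Cdh8, a cadherin, fell in dKO against control (-0.46, limma adjusted p = 0.0353). As deposited and after protein-coding rescaling, 2 area markers were called higher in cKO. In dKO against cKO limma called 0 of them, but 3 lower as deposited.

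**Figure D4:**
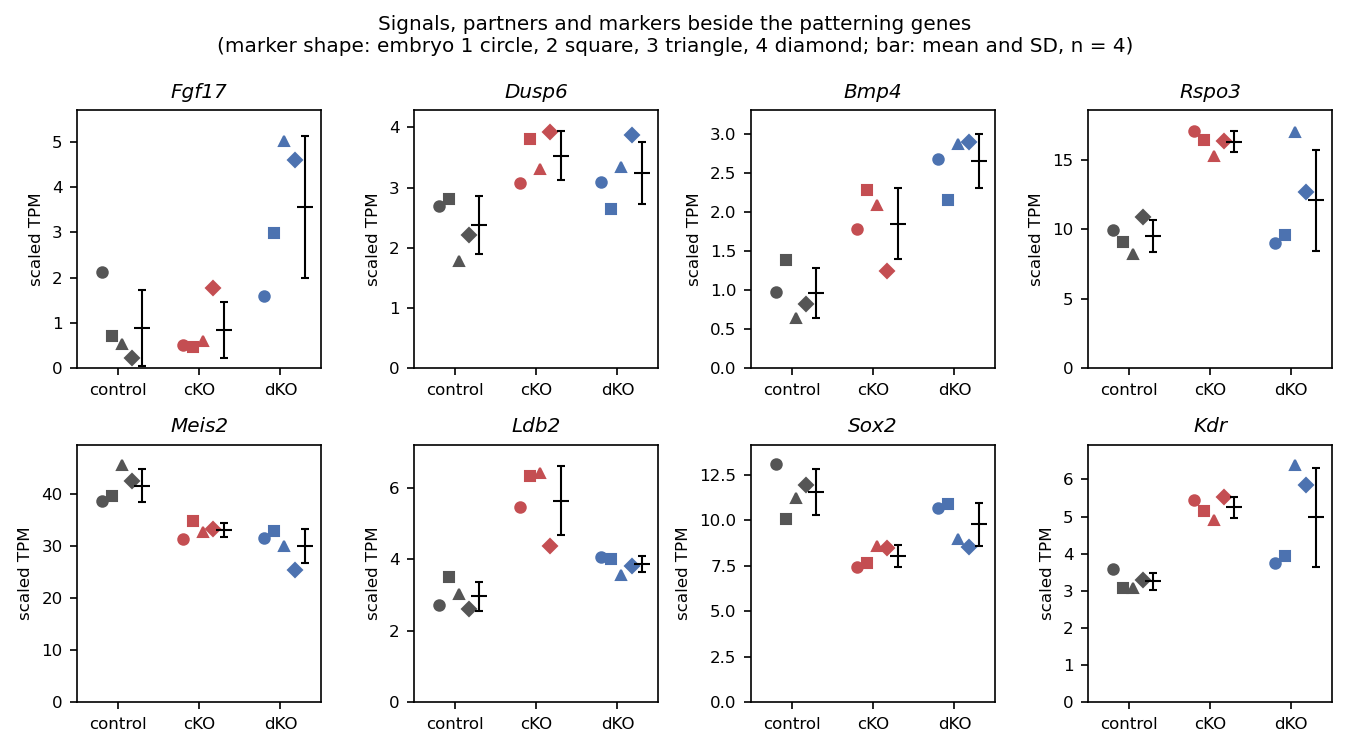
Scaled TPM (vertical axis, from 0) of 8 named signals, factors and markers in each embryo of control, cKO and dKO; marker shape gives the embryo and bars the mean and SD. Rspo3, Ldb2 and Kdr lie above all controls in all 4 cKO embryos, Meis2 lies below all controls in both mutants, and Fgf17 is 2.99 or more in dKO embryos 2 to 4 only.

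Of 8 paralogs of the 9 genes 5 were tested, among them the receptors Fgfr1 and Fgfr2, and limma called 0 in each contrast, with 0 at an unadjusted p under 0.05.

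For each of the 4 genes called in any contrast, the 3 tested genes with the most similar profile over the 12 libraries are described. Likeness is the root mean square difference of log2(scaled TPM + 1) after each gene is centred on its mean, so 0 is identical. All points share the same 12 libraries. Emx1 was nearest to Jun (0.097), Polr3c (0.118) and Nr2c2ap (0.126), where the median over all genes was 0.329. Lhx2 was nearest to Ttyh1 (0.0874), Sox2 (0.0898) and Fzd9 (0.0923), where the median was 0.308. Nr2f2 was nearest to Kmt2d (0.129), Adam12 (0.169) and Gne (0.170), and Sp8 to Ddx18 (0.12), Tmed10 (0.126) and Rps26-ps1 (0.127), with medians of 0.397 and 0.290.

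In GENCODE M21 5 of the 9 genes share their locus with a transcript of the opposite strand that is also among the listed symbols. The library kit marks strand, but whether the counting used it is not given in the sources used here, so reads of a pair may not be separate. Emx2os, beside Emx2, had a control mean of 1.17, a cKO mean of 0.921 and a dKO mean of 0.947. A830082K12Rik, beside Nr2f1, stood at 9.62, 8.83 and 8.49, and neither gene was called. B130024G19Rik, beside Nr2f2, was below the filter at 0.403 ± 0.101, 1.01 ± 0.312 and 0.55 ± 0.171 (SD, n = 4 each), highest in cKO like Nr2f2. Beside Lhx2, Gm13584 stood at 1.47, 1.19 and 0.833 and fell in dKO against control (-0.43, limma adjusted p = 0.0100), a contrast in which Lhx2 was not called. Gm27197, also beside Lhx2, stood at 2.78, 2.07 and 3.02, lowest in cKO like Lhx2, and was not called. G630022F23Rik, beside Fgfr3, was below the filter at 0.273, 0.231 and 0.229. Emx1, Sp8, Dmrt3 and Dmrta2 have no such neighbour among the listed symbols, and transcripts outside them were not examined.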

How the data were processed

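Total RNA was measured in dissected pallium of 12 mouse embryos at stage E13.5, 4 per genotype, grouped by the genotype label. The authors deposited 1 table of TPM per library, and each summed to the same total. HISAT2 and mm10 are named in the submitters' processing notes, without version or role. The quantification tool, gene annotation, strand setting and treatment of reads shared by genes are not given in the sources used here. TPM keeps no depth, so counting error is not known.

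Of 54735 symbols, the 11764 with a mean of at least 1 TPM over all libraries were tested. Each library was divided by 1 factor, the median ratio of its tested genes to the geometric mean library. log2(scaled TPM + 1) was fitted in limma 3.58.1 (R 4.3.3) with a trend, the 3 groups in 1 fit, and Benjamini-Hochberg adjustment over all tested genes at 0.05. Fold changes on this scale understate the change of low genes. Ratios within an embryo and the deleted genes were tested by exact two-sided permutation over 70 assignments. On simulated data for cKO against control over 11764 genes, 182 of 200 genes changed by a log2 size of 1 were recovered, with 17 false calls. The largest change among the patterning genes was 0.65, that of Nr2f2 in cKO against control. This recovery therefore does not tell how often changes of their size would be found. A shift of 0.25 left unscaled gave 3150 false calls.

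The 9 genes, the lists, the tests and the scaling were chosen with earlier results of these data known. Named genes are all 9, up to 3 called genes of largest change per list and contrast, the 3 nearest profiles of each called gene, and the deleted genes. Some of the list genes so chosen are given only within list counts and sums. Fgf8, Fgfr1, Fgfr2, Wnt3a, Dbx1, Fgf7, Tgfa, Pax6, Gli3, Lhx8 and Gbx2 are named outside this rule, as are the opposite-strand transcripts. Alternatives were values as deposited, rescaling to protein-coding genes, quantile normalization, a pseudocount of 0.1, no filter, a filter of 5 TPM, sample weights, a 2-group fit, the replicate number as a block, and leaving out each embryo. Gene coordinates are from GENCODE M21 and promoters from RefSeq for GRCm38.p6.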

Additional observations from a re-analysis of the deposited data

Results flagged for a closer look

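In each group of 4 embryos, the gap of the highest or lowest embryo to its neighbour was divided by the group's range and set against Dixon's 95% critical value for 4 samples. Chance passes about 1 group in 20. Of 156 groups of named genes 3 passed, where chance gives 7.8, and 0 of the 27 groups of the 9 patterning genes did. Fgf17 was high in cKO embryo 4 (gap 0.900), at 1.76 scaled TPM against 0.467 to 0.596 in the other 3. Nrg3 was high in control embryo 2 (gap 0.890), at 1.33 against 0.944 to 0.987. Ccna2 was high in control embryo 3 (gap 0.852), at 65.4 against 58.3 to 59.3.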

How the results depend on the processing

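With main counts of 3, 1 and 1 of the 9 genes called in cKO and in dKO against control and in dKO relative to cKO, the counts were 1, 0 and 3 as deposited. Protein-coding rescaling gave 1 and 0 in the first and second contrast, no filter 0 and 0, and sample weights 5 and 2. A 2-group fit gave 0 in the second contrast and 2 in the third, and a filter of 5 TPM gave 0 for the latter, with 6 of the 9 tested. Leaving out 1 embryo gave 0 to 3, 0 to 2 and 1 to 1. Over the fixed lists, which here include the deleted genes Rnu11 and Trp53, 24, 17 and 17 genes were called. As deposited these were 52, 9 and 49, and with 5 TPM 13, 9 and 5. No filter gave 15 in cKO against control and 10 in dKO against cKO, weights gave 41 in cKO and 34 in dKO against control, and the 2-group fit 6 and 10 in the dKO contrasts. Leaving out 1 embryo gave 13 to 26, 7 to 22 and 6 to 17. Over all genes, the calls of 849, 1059 and 816 became 4163 (4035 higher), 610 and 4636 (72 higher) as deposited. Protein-coding rescaling gave 1539 (1334 higher), 1080 (640 higher) and 1139 (165 higher). Calls were 398, 543 and 346 with 5 TPM, 2020 in cKO with weights, and 517 and 441 in the dKO contrasts with 2 groups. Leaving out 1 embryo gave as few as 501, 593 and 256.

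As deposited, signs reversed for Nr2f1 in cKO against control (0.093) and, in dKO against cKO, for Emx1 (-0.23), Lhx2 (-0.033) and Dmrt3 (-0.052). Emx1 there was -0.036 after protein-coding rescaling and -0.031 with weights. As deposited, Trp53 in cKO differed from control by 0.426 TPM, and Rnu11 in dKO from cKO by 19.3 TPM (exact permutation adjusted p = 0.446). The cause was not tested. With 1 embryo left out, small changes crossed 0: in dKO against control Dmrt3 (-0.19 to 0.029) and Dmrta2 (-0.21 to 0.12), and in dKO against cKO Emx1 (-0.024 to 0.15) and Fgfr3 (-0.17 to 0.015). So did the log2 ratio of Dmrt3 to Dmrta2 in dKO against control (-0.095 to 0.079) and of Emx2 to Pax6 in cKO against control (-0.18 to 0.10).

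Same-numbered embryos did not deviate together (r from -0.097 to 0.0793), so the numbers give no pairing. With the replicate number as a block, 0, 0 and 0 of the 9 genes were called (adjusted p = 0.0910 for Nr2f2 in cKO and 0.0520 for Sp8 in dKO against cKO), and 550, 646 and 458 of all genes. No ratio test passed under any setting run. A pass would need most of these tests to reach the smallest p they allow, so this outcome says little about stability. TPM without depth leaves counting error unknown, which bears most on Sp8 and Dmrt3, both near 1 TPM.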

Other observations

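Immune and neuronal genes moved in the same tissue. Of 5 microglial markers 4 were called higher in cKO than in control, and their summed level was 8.49 to 9.86 scaled TPM in control, 26.1 to 36.5 in cKO and 9.73 to 14.3 in dKO. dKO had 3 of the 5 called lower than cKO. Of 7 neuronal markers 2 were called lower in dKO than in control, the transcription factors Neurod2 (-0.59, limma adjusted p = 0.03) and Neurod6 (-0.60, limma adjusted p = 0.0395). The summed neuronal level was 186 to 238 in control, 197 to 256 in cKO and 138 to 199 in dKO. In cKO limma called 0 of the 7, with 2 higher at an unadjusted p under 0.05. As deposited 6 were called higher there, and 0 after protein-coding rescaling. Against cKO, dKO had 3 of the 7 called lower, 7 as deposited and 4 after protein-coding rescaling. Eomes, the factor of intermediate progenitors, fell in dKO against control (-0.55, limma adjusted p = 0.00239).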
